A study of Mus musculus with 9 samples.

Results

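Collagen chain genes encode the alpha chains that wind around each other in groups of 3 to make the collagens, the main proteins of the extracellular matrix. The members were the protein-coding genes of the deposited count table whose symbol has the form Col, a type number, the letter a and a chain number. The rule gave 44 of the 56748 genes in the table, and 19 of the 44 passed the filter on low counts and were tested. By textbook class, 11 of the 44 are fibrillar chains, 8 are basement membrane chains (the type IV chains and the multiplexins Col15a1 and Col18a1) and 25 belong to other classes. The libraries were made from poly(A) RNA of whole liver tissue. All mice were C57BL/6J males aged 28 weeks, and every mouse, controls included, had eaten a high-fat diet from 8 weeks of age for 20 weeks. In the last 4 weeks, 5 mice received formoterol, a long-acting beta-2 adrenergic agonist, at 1 mg/kg by intraperitoneal injection once a day, and 4 mice received the DMSO vehicle in the same way. The formoterol libraries carry the animal codes M46, M47, M48, M49 and M50, and the vehicle libraries M56, M58, M59 and M60. No lean mice and no untreated mice were analysed here, so every value is a comparison within diet-fed liver.

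In liver, fibrillar collagens are made mainly by hepatic stellate cells and portal fibroblasts, and their build-up is the defining change of fibrosis. Type IV collagen forms sheets rather than fibrils and is laid down by endothelial and stellate cells along sinusoids, ducts and vessels. Each chain passes through the endoplasmic reticulum, where prolines and lysines are hydroxylated, before it is secreted, trimmed, assembled and cross-linked.

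Libraries held 12336665 to 20339665 counts. Levels are given as CPM, that is counts scaled by library size and TMM factors, and differences as log2 fold changes of formoterol minus vehicle with their standard error (SE). Two-sided tests are edgeR's quasi-likelihood test over all 13042 genes kept, with Benjamini-Hochberg adjustment and a threshold of 0.05 on the adjusted p. No gene of the 13042 passed that threshold, although an unadjusted p under 0.05 was found for 721 genes with lower and 1178 with higher levels, so no collagen chain was called with all 9 libraries in the fit. The libraries of the formoterol group differed widely from each other in collagen: without Col18a1, the summed collagen level was 67.0 CPM in M46, 165 in M47, 147 in M48, 360 in M49 and 285 in M50. In the vehicle libraries the same sum was 388 CPM in M56, 262 in M58, 335 in M59 and 214 in M60. M46 therefore lay far below every other library, and M49 lay within the vehicle range for most chains. Hepatocyte markers (among them Alb, albumin) summed to between 91601 and 149278 CPM in every library.

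Of the 44 chain genes, 38 had at least 1 count and 18 had a count in all 9 libraries. The 6 with no count were Col2a1, Col9a2, Col11a1, Col19a1, Col26a1 and Col6a4. Another 19 had counts but too few to be tested, with at most 73 counts in total and at most 38 in any library. Because the filter asked for 0.6 CPM in at least 4 libraries of either group, the 19 tested chains are the expressed ones and do not stand for all 44. To compare chains with each other, levels were divided by the gene length in kilobases that the table gives. On that scale Col18a1, the core protein of a basement membrane proteoglycan and the precursor of endostatin, was the highest, at 47 ± 2.69 CPM per kilobase in vehicle liver (SD, n = 4). Next came Col3a1 at 5.85 ± 2.08, Col14a1 at 5.02 ± 0.841, Col1a1 at 4.09 ± 2.51 and Col5a3 at 3.97 ± 1.50 CPM per kilobase. Only the step from Col18a1 to Col3a1 exceeded the larger of the neighbours' SDs among those 5. The order depends on the table's lengths, 12426 bp for Col1a2 and 6563 bp for Col1a1. Before the division Col1a2 was above Col1a1 in vehicle liver, with means of 31.3 and 26.8 CPM. Col18a1 alone took 45.7% to 82.6% of all collagen counts, depending on the library.

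**Figure D1:**
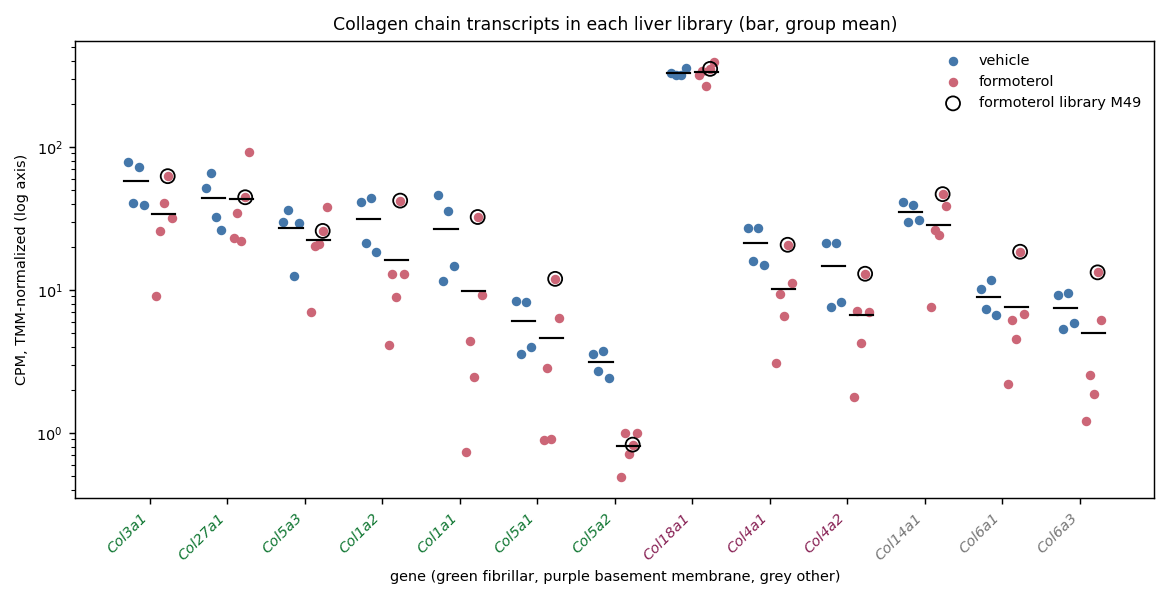
CPM (log axis) of the 13 tested chains described by name, 1 point per library, with vehicle and formoterol side by side, a bar at each group mean and M49 circled. Col5a2 is the chain whose formoterol points, 0.488 to 1.00 CPM, all sit below its vehicle points, 2.43 to 3.76 CPM, and Col18a1 is level between groups.

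The 7 fibrillar chains that could be tested all had lower means in formoterol liver and a negative log2 fold change (median −0.76). None was called by edgeR over all genes kept with all libraries. A negative value was shared by 51.3% of all genes tested. Leaving out M49 gave a class median of −1.12, and leaving out M46 gave −0.53. The pattern was uneven inside the class, from Col5a2 at −1.94 to Col27a1 at −0.02. Col1a1 and Col1a2 encode the chains of type I collagen, the main fibrillar collagen of scar. Col1a1 (ENSMUSG00000001506, mm39 chr11:94827050-94843868) had 45.8 CPM in M56, 11.6 in M58, 35.3 in M59 and 14.6 in M60. In the formoterol libraries it had 0.732 CPM in M46, 4.39 in M47, 2.46 in M48, 32.3 in M49 and 9.18 in M50. M46, M47, M48 and M50 were thus below every vehicle library, and M49 lay inside the vehicle range. The group means were 26.8 ± 16.5 (SD, n = 4) and 9.82 ± 13.0 CPM (SD, n = 5), with a log2 fold change of −1.43 (SE 0.97, edgeR adjusted p = 0.545). Without M49 it was −2.66 (SE 0.77, edgeR adjusted p = 0.0964), still not called. Without M46 it was −1.16 (edgeR adjusted p = 0.704).

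Col1a2 (ENSMUSG00000029661, chr6:4504814-4541544) likewise had its lowest levels in M46 and M48. It had 41.4, 21.3, 44.0 and 18.3 CPM in the vehicle libraries M56, M58, M59 and M60, and 4.15, 12.8, 8.95, 42.1 and 12.8 CPM in the formoterol libraries M46 to M50. Again only M49 reached the vehicle range. The log2 fold change was −0.94 (SE 0.61, edgeR adjusted p = 0.525), and without M49 the chain was called lower, at −1.69 (SE 0.39, edgeR adjusted p = 0.0377). Without M46 it was not called, at −0.72 (edgeR adjusted p = 0.696). Col3a1 (ENSMUSG00000026043, chr1:45350698-45388866) encodes type III collagen, which mixes with type I in fibrils and forms the reticular fibres of liver. Its levels were 77.9, 40.2, 72.1 and 39.4 CPM in the vehicle libraries, in the order above, and 9.11, 25.7, 40.6, 62.3 and 31.9 CPM in M46 to M50. The groups overlapped through M48 and M49, and the log2 fold change of −0.76 (SE 0.46) was not called with all libraries (edgeR adjusted p = 0.491) or without M49 (−1.10, SE 0.43, edgeR adjusted p = 0.173). Without M46 it was −0.53 (edgeR adjusted p = 0.554).

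Col5a2 (ENSMUSG00000026042, chr1:45413481-45542442) was the exception to the place of M49. It encodes a chain of type V collagen, a minor fibrillar collagen that is built into type I fibrils and limits their diameter. The vehicle libraries M56, M58, M59 and M60 had 3.55, 2.72, 3.76 and 2.43 CPM, and M46 to M50 had 0.488, 0.992, 0.713, 0.829 and 1.00 CPM. No formoterol library reached the lowest vehicle library, and M49, at 0.829 CPM, lay among the other formoterol libraries. This made it 1 of 19 tested chains (5.26%) whose formoterol group lay wholly below the vehicle group, beside 2.38% of all genes. No tested chain lay wholly above, beside 2.45% of all genes. The means of 3.11 ± 0.642 (n = 4) and 0.805 ± 0.214 CPM (n = 5) gave a log2 fold change of −1.94 (SE 0.36), with an unadjusted edgeR p of 8.46e-05 and an adjusted p of 0.151. With 1 library left out at a time the adjusted p ranged from 0.0123 without M49 to 0.477 without M56, and the log2 fold change from −2.04 to −1.82. These levels rest on few reads, with 6 to 77 counts of Col5a2 in a library.

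Its partner Col5a1 (ENSMUSG00000026837, chr2:27776437-27929526), the other main chain of type V collagen, did not show that separation. It had 8.33, 3.54, 8.25 and 3.96 CPM in the vehicle libraries M56, M58, M59 and M60, and 0.895, 2.84, 0.908, 11.9 and 6.35 CPM in M46 to M50. M49 was the highest of all 9 libraries and M50 lay inside the vehicle range, so the groups overlapped (log2 fold change −0.37, SE 0.70, edgeR adjusted p = 0.851). Without M49 the value was −1.12 (SE 0.58, edgeR adjusted p = 0.274), and without M46 it was −0.14. The third chain, Col5a3 (ENSMUSG00000004098, chr9:20681346-20726363), had 12.5 to 36.2 CPM in vehicle and 7.00 to 38.2 CPM in formoterol liver (log2 fold change −0.26, SE 0.42, edgeR adjusted p = 0.823, and −0.045 without M46). Its highest formoterol library was M50 rather than M49.

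Col27a1 (ENSMUSG00000045672, chr4:63132241-63253228) encodes a fibrillar chain first known from cartilage. It had 51.9, 65.2, 32.1 and 26.3 CPM in the vehicle libraries and 23.1, 34.5, 21.9, 44.4 and 92.3 CPM in M46 to M50. Its sign was positive without M46 (0.13), and its means were close (43.9 ± 17.9 and 43.2 ± 28.9 CPM) with a log2 fold change of −0.02 (SE 0.45), and its 5 formoterol libraries spread over more than the vehicle range. M50, not M49, was the highest. The 250 bases before the annotated starts of Col3a1 and Col27a1 are printed because these are well-expressed fibrillar chains whose high formoterol libraries differ, M49 for Col3a1 and M50 for Col27a1. The sequences are RefSeq's, in build GRCm38.p6, which is not the build of the count table. Col3a1 is at chr1:45311288-45311537 on the plus strand and has 35.2% G and C, with a TATAAA match in capitals. Col27a1 is at chr4:63215162-63215411 on the plus strand and has 59.6% G and C, with a GGGCGG match, the core of a GC box, in capitals. Searched on both strands of RefSeq windows from 250 bases before to 50 after each start, TATAAA was in 5 of 38 collagen windows (13.2%) and 13.6% of all 32851 windows. GGGCGG was in 23 of 38 (60.5%) and 35.7%, and CCAAT in 13 of 38 (34.2%) and 37.4%. None of the 3 motifs contains another, though neighbouring matches can share bases. A match describes letters and is not a binding site. A link between these sequences and the levels in any library was not tested.
Col3a1: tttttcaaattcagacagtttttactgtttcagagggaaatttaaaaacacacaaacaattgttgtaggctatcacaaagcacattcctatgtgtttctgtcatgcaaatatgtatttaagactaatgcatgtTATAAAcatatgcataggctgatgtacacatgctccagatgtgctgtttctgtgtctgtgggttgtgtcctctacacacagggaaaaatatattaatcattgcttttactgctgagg
Col27a1: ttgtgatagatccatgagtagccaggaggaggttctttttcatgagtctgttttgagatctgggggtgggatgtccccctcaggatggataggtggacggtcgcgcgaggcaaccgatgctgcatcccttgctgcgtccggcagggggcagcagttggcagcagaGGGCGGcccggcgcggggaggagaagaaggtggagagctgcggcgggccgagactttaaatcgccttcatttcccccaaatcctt

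Among the basement membrane chains tested, the type IV chains Col4a1, Col4a2 and Col4a5 and the multiplexin Col15a1 had lower means in formoterol liver. None of them was called by edgeR over all genes kept with all libraries. Col18a1 had group means that differed by less than the spread. Of the 5 that were tested, 4 had a negative log2 fold change and 2 were lower at an unadjusted p under 0.05 (class median −0.71, −0.82 without M49 and −0.57 without M46). Col4a1 (ENSMUSG00000031502, chr8:11248423-11362826) and Col4a2 (ENSMUSG00000031503, chr8:11362805-11499287) encode the chains that form the common type IV network. Col4a1 had 27.2, 15.8, 27.1 and 14.8 CPM in the vehicle libraries M56, M58, M59 and M60, and 3.09, 9.29, 6.55, 20.7 and 11.1 CPM in M46 to M50. As for type I collagen, M49 alone was inside the vehicle range. The means of 21.2 ± 6.84 and 10.1 ± 6.61 CPM gave a log2 fold change of −1.05 (SE 0.43) with an unadjusted edgeR p of 0.0344 and an adjusted p of 0.298. Without M49 the chain was called lower, at −1.49 (SE 0.34, edgeR adjusted p = 0.0318). Without M46 it was not called, at −0.85 (edgeR adjusted p = 0.379). Col4a2 had 21.3, 7.57, 21.3 and 8.24 CPM in the vehicle libraries and 1.79, 7.16, 4.28, 13.0 and 7.00 CPM in M46 to M50. Its log2 fold change of −1.12 (SE 0.50) had an unadjusted edgeR p of 0.0467 and an adjusted p of 0.335, and without M49 it was −1.52 (SE 0.47, edgeR adjusted p = 0.0889). Without M46 it was −0.91 (edgeR adjusted p = 0.456).

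Both genes lie head to head and are read away from each other. Their annotated gene bodies overlap by 22 bp, both in the count table and in the RefSeq annotation, so the pair shares the DNA at its starts. That stretch is printed because the levels of Col4a1 and Col4a2 tracked each other across libraries (Pearson r = 0.977). Col1a1 and Col4a1, which lie on different chromosomes, tracked each other as closely (Pearson r = 0.990). A link between the shared DNA and the levels was not tested. In GRCm38.p6 it is chr8:11312801-11312830 on the plus strand, with the 22 shared bases in capitals and 4 bases on each side. Col4a2 starts at the first capital and runs to the right, and Col4a1 starts at the last and runs to the left on the minus strand.
Col4a1 and Col4a2: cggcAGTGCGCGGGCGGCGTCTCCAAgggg

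Col18a1 (ENSMUSG00000001435, chr10:76888012-77002382) is known to be made by hepatocytes as well as by other liver cells. It had 327, 317, 318 and 357 CPM in the vehicle libraries and 318, 337, 266, 351 and 395 CPM in M46 to M50. The lowest and the highest value both came from the formoterol group, and the means were 330 ± 18.9 and 333 ± 47 CPM (log2 fold change 0.015, SE 0.15, edgeR adjusted p = 0.975). Its sign depended on the scaling: it was −0.14 with library totals alone, which moved the median of all genes to −0.16, −0.027 with upper quartile factors and 0.023 with DESeq2 size factors. With the length correction it was 0.11. M46, the library lowest in 15 of the 19 tested chains, was not low in Col18a1. The reads of Slc19a1, which overlaps it on the other strand, came to 1.36% of those of Col18a1. Col15a1, the other multiplexin, had 2.48 to 4.53 CPM in vehicle and 0.584 to 4.88 CPM in formoterol liver. Its log2 fold change was −0.71 (SE 0.48, edgeR adjusted p = 0.526), and −0.57 without M46. Col4a5 had 0.686 to 2.27 CPM in vehicle and 0.488 to 2.58 CPM in formoterol liver (log2 fold change −0.22, SE 0.53). Both overlapped between groups.

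**Figure D2:**
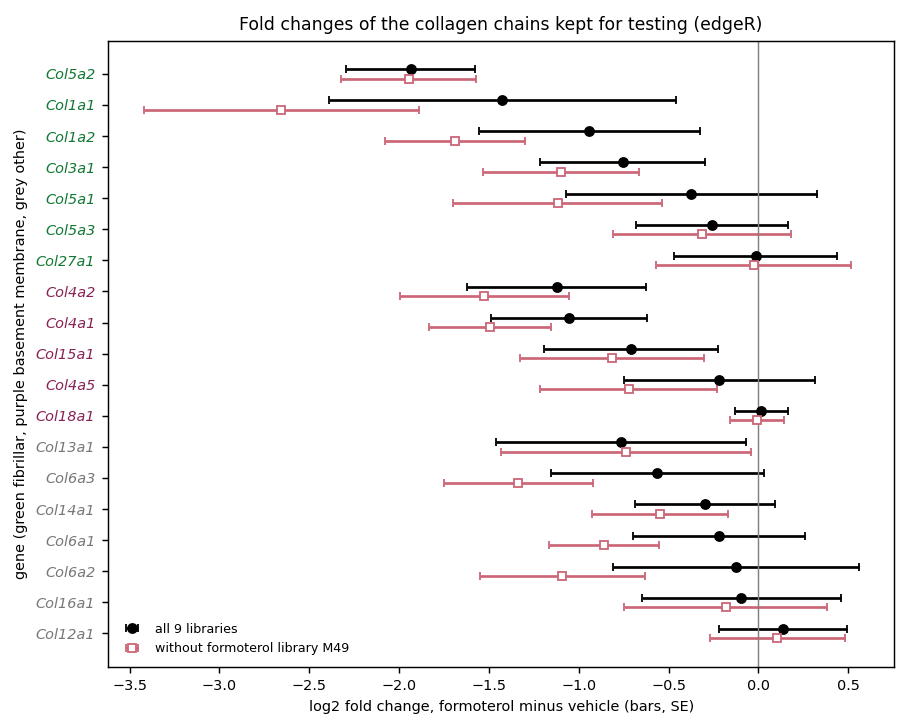
Log2 fold change of formoterol against vehicle for the 19 tested chains, with bars of 1 SE, from all 9 libraries and without M49. Of the 19 values, 17 are below 0, and leaving out M49 moved the median from −0.37 to −0.86 while Col5a2 went only from −1.94 to −1.95.

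The other chains had the smallest class median with all libraries, with 6 of 7 tested members negative, 0 at an unadjusted p under 0.05 and a median of −0.22. Leaving out M49 gave −0.74, and leaving out M46 gave −0.0043. Col14a1 (ENSMUSG00000022371, chr15:55171146-55384199), a fibril-associated chain found on the surface of type I fibrils, had 29.8 to 41.3 CPM in the vehicle libraries and 7.65, 26.0, 24.3, 46.7 and 38.4 CPM in M46 to M50. Type VI collagen forms beaded microfilaments around cells. Its chain Col6a1 (ENSMUSG00000001119, chr10:76544626-76562002) had 10.1, 7.32, 11.7 and 6.65 CPM in the vehicle libraries and 2.20, 6.17, 4.54, 18.5 and 6.77 CPM in M46 to M50. Col6a3 (ENSMUSG00000048126, chr1:90693645-90771693) had 9.26, 5.35, 9.57 and 5.86 CPM, and 1.22, 2.55, 1.88, 13.3 and 6.12 CPM, in the same orders. In these type VI chains and in Col6a2 the highest of all 9 libraries was M49, so a single formoterol library set the top of the range. The log2 fold changes were −0.30 (SE 0.39) for Col14a1, −0.22 (SE 0.48) for Col6a1 and −0.56 (SE 0.59) for Col6a3. Without M49 they were −0.55, −0.86 (SE 0.31, edgeR adjusted p = 0.107) and −1.34 (SE 0.41, edgeR adjusted p = 0.0751) in that order. Without M46 they were −0.07, −0.0043 and −0.34.

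Among the chains with too few counts to be tested, Col25a1 (ENSMUSG00000058897, chr3:129925150-130393526), a transmembrane collagen described in neurons, had formoterol libraries that were all above the vehicle libraries. It had 0, 0, 2 and 6 counts in M56, M58, M59 and M60 and 6, 9, 9, 7 and 14 counts in M46 to M50, or at most 0.317 CPM in vehicle and at least 0.341 CPM in formoterol liver. Over all genes with a count, 1.44% had a formoterol group wholly above the vehicle group. In a fit without the filter its log2 fold change was 2.32 with an edgeR adjusted p of 0.348. Single counts decide these values, and M49, at 0.341 CPM, was the closest to the vehicle range. Several other rare chains had many of their counts in 1 formoterol library. Col20a1, a fibril-associated chain, had 38 of its 73 counts in M50, Col7a1, the anchoring fibril chain of skin, 29 of 48, and the fibrillar Col11a2 23 of 33. The type IV chains Col4a3 and Col4a4, whose starts lie 71 bp apart and face away from each other, had 24 of 69 and 25 of 65 counts in M49, and the type VI chain Col6a5 had 14 of 24 there. These rare chains and libraries were picked out after their counts were seen.

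Over the 19 tested chains, 17 (89.5%) had a negative log2 fold change, beside 51.3% of all genes, and the median was −0.37 beside −0.01. At an unadjusted p under 0.05, 3 chains (15.8%) were lower, Col4a1, Col4a2 and Col5a2, beside 5.53% of all genes, and 0 were higher, beside 9.03%. The median over the tested chains was −0.14 without M46, −0.21 without M56 and −0.86 without M49. The count of 3 was 1 without M47, M48, M56 or M59. It was 2 without M46 or M50, 3 without M58 or M60 and 9 without M49. In the fit without M49, 10.8% of all genes were lower at that threshold. For the other fits with 1 library left out the share over all genes is not given here, so their counts cannot be set against it. The 3 chains called at an adjusted p without M49 were Col1a2, Col4a1 and Col5a2 (15.8%), beside 2.04% of all genes, and none was called without any other single library. With limma-voom and weights that count variable libraries for less, 6 chains were called lower (31.6%), namely Col3a1, Col1a2, Col4a1, Col1a1, Col6a3 and Col5a2, beside 4.46% of all genes. Without the filter Col5a2 was called (edgeR adjusted p = 0.0109), beside 0.299% of all genes. At an unadjusted p under 0.05, 6 chains were lower with limma-voom (7.25% of all genes), 10 with quality weights (14.1%) and 1 without the filter (6.78%). DESeq2 called 302 genes, 0.845% of those it adjusted being lower, and no collagen chain, but it gave an adjusted p for only 13 of the 19, not for Col5a2.

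**Figure D3:**
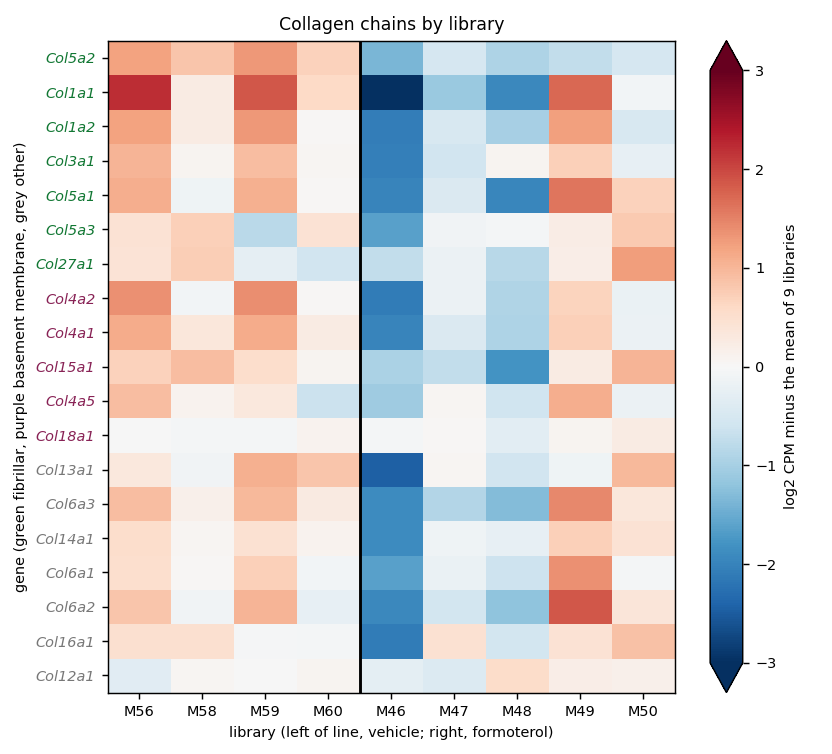
Log2 CPM (prior count 2) of each tested chain in each library, minus that chain's mean over the 9 libraries, ordered by class, with colours that end at −3 and 3 (Col1a1 in M46 lies beyond). M46 is low across most chains (median −1.89), M49 is at the vehicle level for most (median 0.70), and Col5a2 is low in all 5 formoterol libraries.

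The share of chains that reached the vehicle range differed from library to library. M46 was at or above the lowest vehicle library for 2 of the 19 chains, M48 for 4, M47 for 6, M50 for 13 and M49 for 17. The 2 chains for which M49 stayed below were Col5a2 and Col13a1, a transmembrane chain with at most 1.27 CPM. M50 stayed below for Col3a1, Col1a2, Col4a1, Col1a1, Col4a2 and Col5a2, and exceeded every vehicle library for Col18a1, Col27a1, Col5a3, Col15a1, Col12a1 and Col16a1. M49 exceeded every vehicle library for Col14a1, Col6a1, Col6a3, Col5a1, Col6a2, Col4a5 and Col12a1. The formoterol libraries with vehicle-like collagen were thus not alike in which chains were high, with Col12a1 as the one chain above every vehicle library in both.

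The levels of chains that build 1 collagen were compared within each library as log2 ratios of counts per base (0.5 added to each count), which need no scaling between libraries. The height of a ratio depends on the table's gene lengths, which cancel in the difference between groups. Col1a1 to Col1a2 was 0.58 ± 0.42 in vehicle (SD, n = 4) and −0.42 ± 0.89 in formoterol libraries (SD, n = 5), a difference of −0.99 (exact permutation p = 0.0794, 0.302 adjusted over 6 ratios). Below 0 were M46 at −1.52, M47 at −0.62 and M48 at −0.93, while M49 at 0.54 and M50 at 0.44 lay inside the vehicle range. Those first 3 were also the libraries with the lowest Col1a1 level. Col5a1 to Col5a2 was 1.02 ± 0.39 in vehicle and 1.98 ± 1.41 in formoterol libraries (difference 0.96, exact permutation p = 0.27, adjusted 0.405). M49 at 3.97 and M50 at 2.80 were above all other libraries, and M46, M47 and M48 were at 0.99, 1.65 and 0.50. Col4a1 to Col4a2 was 0.48 ± 0.36 and 0.45 ± 0.15, a difference of −0.03 (exact permutation p = 0.865). The differences were −1.32 for Col1a1 to Col3a1 (exact permutation p = 0.103), −0.99 for Col1a1 to Col4a1 (exact permutation p = 0.151) and 0.16 for Col6a1 to Col6a2 (exact permutation p = 0.548). The smallest p these group sizes allow is 0.00794, and none of the 6 ratios passed the adjustment.

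**Figure D4:**
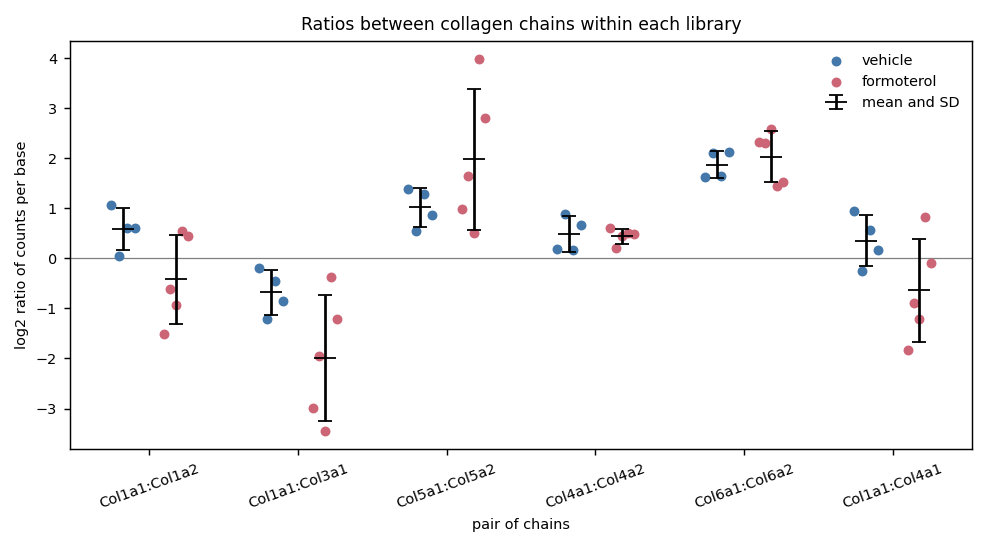
Log2 ratio of counts per base between chains in each library, with the mean and SD of each group, for 6 pairs of chains. The formoterol points of Col1a1 to Col1a2 run from −1.52 to 0.54, and those of Col5a1 to Col5a2 reach 3.97 in M49, while Col4a1 to Col4a2 has group means of 0.48 and 0.45.

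Across the 9 libraries, 5 of the 6 pairs of chains examined varied together in log2 CPM. Col4a1 and Col4a2 had a Pearson r of 0.977 (exact permutation p = 2.2e-05, adjusted 4.41e-05 over 6 pairs) and a Spearman rho of 0.95 (exact permutation p = 0.000353). Col1a1 and Col1a2 had r = 0.978 (exact permutation p = 6.06e-05) and rho = 0.917 (exact permutation p = 0.00131). Col6a1 and Col6a2 had r = 0.975 and rho = 0.983 (exact permutation p = 2.2e-05 and 4.96e-05). Without the 2 libraries farthest from the median of the first chain, r was 0.930, 0.945 and 0.952 in that order, and on deviations from the group means it was 0.970, 0.968 and 0.972. Chains of different collagens were as close, since Col1a1 and Col4a1 had r = 0.990 and rho = 0.983 (exact permutation p = 8.27e-06 and 4.96e-05), with r = 0.971 without M46 and M48. Col1a1 and Col3a1 had r = 0.907 and rho = 0.817 (exact permutation p = 0.000604 and 0.0108). For Col5a1 and Col5a2 the relation did not pass the test, with r = 0.562 and rho = 0.567 (exact permutation p = 0.122 and 0.121). It was r = 0.0064 without M46 and M48, and r = 0.699 on deviations from the group means. That pair reached r = 0.809 (adjusted exact permutation p = 0.0160) without M49. All 9 points of a pair share their library, its depth and its mix of cells.

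**Figure D5:**
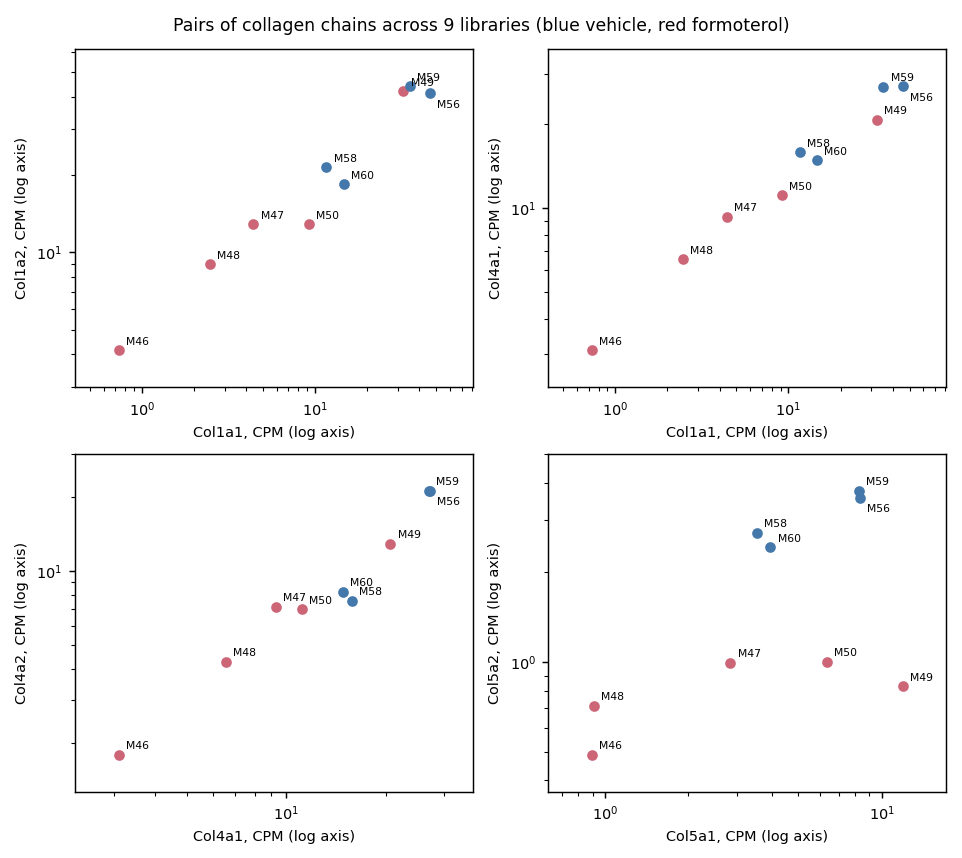
CPM of one chain against another on log axes, 1 point per library, for Col1a1 and Col1a2, Col1a1 and Col4a1, Col4a1 and Col4a2, and Col5a1 and Col5a2. The first 3 pairs lie along a line (r of 0.978, 0.990 and 0.977), and in the last M49 combines the highest Col5a1, 11.9 CPM, with a Col5a2 of 0.829 CPM.

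Neighbouring chains did not always share their pattern. Col3a1 and Col5a2 are neighbours on chromosome 1, with 24614 bp between facing gene ends, and differed in the place of M49 (62.3 CPM, within the vehicle range, against 0.829 CPM, below it). Col6a1 and Col6a2 lie 85161 bp apart on chromosome 10, and Col18a1 follows Col6a1 at 326009 bp. The tested chains are long transcripts, with a median length in the table of 7021 bp against 4229 bp for all protein-coding genes tested, and over 11743 protein-coding genes the log2 fold change had a Spearman rho of −0.245 with length, a description across genes that are not independent. A correction for length left Col5a2 at −1.82, Col1a1 at −1.40 and Col4a1 at −0.98, and turned Col27a1 to 0.087.

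Genes that process and bind collagen were taken by role from 7 lists. In none was a gene called by edgeR over all genes kept with 9 libraries. The lists were described by counts and medians only. Of 22 genes for folding and modification in the endoplasmic reticulum, 19 were tested and 12 were negative, near the 51.3% of all genes, with a median of −0.10. At an unadjusted p under 0.05, 2 were higher, a share near the 9.03% of all genes. The higher ones were Ppib, a prolyl isomerase of the collagen hydroxylation complex, with 66.0 ± 9.61 CPM in vehicle and 101 ± 29.7 CPM in formoterol liver (log2 fold change 0.62, SE 0.21, edgeR adjusted p = 0.213), and Tmem38b, a cation channel of the endoplasmic reticulum, with 73.7 ± 16.0 and 102 ± 19.5 CPM. Without M49, Ppib was called higher (0.74, edgeR adjusted p = 0.0312), beside 3.47% of all genes. The most abundant was P4hb, a subunit of prolyl hydroxylase and a general disulfide isomerase, with 1201 ± 69.5 and 1296 ± 245 CPM. Colgalt1, which adds galactose to hydroxylysine, had a log2 fold change of −0.39 (SE 0.23). The median of this list was nearer to that of all genes (−0.01) than to that of the chains (−0.37).

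The lists for steps outside the cell had negative medians. For these lists and for those of the next paragraph, the only other median taken was without M49, and none was taken without M46. M46 had the lowest sum of all 9 libraries for propeptide removal (40.7 CPM), proteoglycans (66.4 CPM) and basement membrane partners (48.8 CPM). For cross-linking genes M48 was lowest, at 33.5 CPM. All 4 tested genes of propeptide removal were negative (median −0.55, and −1.0 without M49), among them Pcolce, an enhancer of procollagen cleavage, with 12.4 ± 1.53 and 7.67 ± 5.05 CPM, Adamts2 at −0.70 (SE 0.42), Adamts14 at −0.42 (SE 0.80) and the protease gene Bmp1 at −0.05. All 4 tested cross-linking genes were negative (median −0.60, and −1.35 without M49), with the lysyl oxidase Loxl2 at −0.91, Loxl3 at −0.65 and the transglutaminase Tgm2 at −0.26. Of 8 tested small leucine-rich proteoglycans, which coat fibrils, 7 were negative (median −0.47, and −0.94 without M49): Fmod was at −0.98, Prelp at −0.92, Bgn at −0.73 and the most abundant, Dcn, at −0.35. Of 16 tested basement membrane partners, 15 were negative (median −0.46, and −0.68 without M49) and 2 were lower at an unadjusted p under 0.05, beside 5.53% of all genes. These were the laminin chain Lamb3, with 7.50 ± 1.86 and 4.46 ± 1.37 CPM (log2 fold change −0.74, SE 0.26, edgeR adjusted p = 0.223), and Pxdn, the peroxidase that links type IV collagen, with 5.16 ± 0.654 and 3.07 ± 1.31 CPM. Lamc1 was at −0.49 and the most abundant, Sparc, at −0.53. Without M49, 2 genes of this list were called lower, beside 2.04% of all genes, and 1 higher, beside 3.47%, the laminin chain Lama3 (log2 fold change 1.41, edgeR adjusted p = 0.0428).

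Of 7 tested collagen receptors and uptake genes, 6 were negative (median −0.27, and −0.85 without M49), with the receptor kinase Ddr2 at −0.62 and the integrin chains Itga1 at −0.14 and Itgb1 at 0.14. Of 14 tested genes of TGF beta signalling and stellate cell activation, 12 were negative (median −0.52, and −0.92 without M49) and 2 were lower at an unadjusted p under 0.05, beside 5.53% of all genes. Pdgfa, a growth factor for stellate cells, had 13.3 ± 2.30 and 7.97 ± 2.99 CPM (log2 fold change −0.73, SE 0.25, edgeR adjusted p = 0.214, and 0.0201 without M49). Smad3 was at −0.49 and the receptor gene Tgfbr1 at 0.15.

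The summed markers of stellate cells, myofibroblasts, portal fibroblasts and endothelial cells were each lowest in M46 and highest in M49 among the 9 libraries. M46 was also lowest for 15 of the 19 tested chains, and M49 exceeded every vehicle library for 7 of them. Counts of single chains are not the same measure as sums of markers. The summed collagen level without Col18a1 was 360 CPM in M49 and 388 CPM in the vehicle library M56. In bulk liver, fewer cells of a type and less RNA per cell cannot be told apart. All 12 stellate cell markers were tested, 9 were negative and the median was −0.19, and their summed level ran from 236 to 253 CPM in vehicle and from 87.6 CPM in M46 to 297 CPM in M49 in formoterol liver. Of 12 endothelial markers, 11 were negative (median −0.37), with sums of 178 to 218 CPM in vehicle and 63.3 (M46) to 228 (M49) CPM in formoterol liver. Cholangiocyte markers summed to 83.1 to 197 CPM in vehicle and 70.5 (M46) to 259 (M49) CPM in formoterol liver, with 5 of 7 tested negative. Of the 7 myofibroblast markers 4 were tested and 3 were negative (median −0.08), with sums of 14.7 to 22.8 and 6.92 to 31.6 CPM. Among the tested 4, 1 was lower at an unadjusted p under 0.05, beside 5.53% of all genes. Their log2 fold changes ran from −2.34, in a gene with at most 1.46 CPM in any library, to 0.37. Acta2, the smooth muscle actin of activated stellate cells, had 1.91 ± 0.543 and 1.81 ± 0.912 CPM. Portal fibroblast and mesothelial markers, 6 of 11 tested and all 6 negative, summed to 26.3 to 36.8 and 13.0 to 42.0 CPM. Monocyte and lipid-associated macrophage markers, 5 of 6 tested negative (median −0.48), summed to 46.9 to 93.5 and 22.3 to 73.4 CPM. Lyz2, Cd9 and Ccr2 of that list were lower at an unadjusted p under 0.05, beside 5.53% of all genes. All 3 were called lower without M49, beside 2.04% of all genes. Kupffer cell markers, 4 of 7 negative, summed to 37.4 to 77.8 and 41.3 to 89.3 CPM. Hepatocyte markers went the other way, with 2 of 11 negative and a median of 0.35, and 5 were higher at an unadjusted p under 0.05, beside 9.03% of all genes. Their sums were 91601 to 105823 CPM in vehicle and 106497 to 149278 CPM in formoterol liver. Adipocyte markers summed to 14.8 to 31.6 and 36.5 to 115 CPM, with Cfd at 11.7 ± 5.89 and 75.4 ± 32.6 CPM, Fabp4 at 8.82 ± 2.09 and 8.04 ± 4.46 CPM, and Plin1 at 0. Only 2 of the 6 adipocyte markers, Cfd and Fabp4, had enough counts to be tested. Of those, only Cfd had a higher mean in formoterol liver, so the sum does not stand for the list. The share of counts from mitochondrial genes was 16.4% in M46 and 25.1% in M49 within a range of 16.4% to 38.6%. The part of these values in the collagen results was not tested.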

How the data were processed

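Liver RNA of 9 mice was analysed, 5 given formoterol and 4 given vehicle. The authors deposited 1 table of raw counts per Ensembl gene, whole numbers that are not normalized, with symbols, biotypes, lengths and mm39 coordinates. Reads were aligned with HISAT2 2.0.5 to mm39 and DESeq2 was used, per the submitters' processing notes. How reads were counted, with or without strand and on which annotation release, is not given in the sources used here, so reads of overlapping genes cannot be told apart. Columns were read as formoterol or vehicle from the last letter of their suffix and the group sizes, with 1 mouse assumed per library. P-values would measure only technical spread if that were wrong. No pair of libraries in a group agreed within sampling noise.

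Of 56748 genes, 13042 were kept by edgeR's filterByExpr (minimum count 10, minimum total 15) and compared with edgeR 4.0.16 in R 4.3.3 (TMM factors, robust quasi-likelihood test, Benjamini-Hochberg adjustment), tested on simulated data. The genes kept held at least 99.8% of the counts of every library. Ratios and correlations used exact permutations in scipy 1.17.1, over all 126 splits for ratios. Alternatives were DESeq2 1.42.0, limma-voom with limma 3.58.1 with and without quality weights, other scaling factors, no filter, a correction for gene length and leaving out each library. Sequences are from RefSeq tables of GRCm38.p6, in which 35 of the 44 members had a promoter window. Members and lists were chosen with earlier results of these data known. Chains were named if their mean was 5 CPM or more, if they were among the 5 smallest p-values or if their groups did not overlap. In each pathway list up to 3 genes with the smallest p and the most abundant were named. A gene that this rule selects is not reported here. Lama3, Acta2, Cfd, Fabp4, Plin1, Lyz2, Cd9 and Ccr2 were added after their values were seen, as were the chains named outside the rule for chains.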

Additional observations from a re-analysis of the deposited data

Results flagged for a closer look

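In 3 of 40 groups of values examined, 1 library lay far from the rest of its group, where chance gives about 1 in 20. That count is close to the rate by chance. All 3 were formoterol library M49. The groups are not independent, since Col1a1 and Col1a2 varied together across libraries (Pearson r = 0.978). Its Col1a1 level was 32.3 CPM, and the gap to the next formoterol library took 0.733 of the group's whole range. Its Col1a2 level was 42.1 CPM, with a gap of 0.771 of the range. Its Col6a1 level was 18.5 CPM, with a gap of 0.719 of the range. For Col5a2 the same library lay among the others, at 0.829 CPM.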

How the results depend on the processing

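No collagen chain lost a call, since none was called by edgeR over the genes kept with 9 libraries. Over 13 named chains and all alternatives, 198 values kept their direction and side of the threshold, 10 passed it and 12 changed sign. The genes called over the whole table were 0 with edgeR, 263 with no filter, 302 with DESeq2, 1374 with limma-voom with quality weights and 0 to 702 with 1 library left out (4 without M60, 702 without M49). The chains lower at an unadjusted p under 0.05 were 3, and 1 with no filter, 6 with limma-voom and 10 with quality weights. They were 1 to 9 with 1 library left out. With DESeq2 they were 2, and with library totals alone 2, and the share over all genes in those fits is not given here. The chains called lower were 0, and 1 with no filter (Col5a2), 6 with quality weights and 0 to 3 with 1 library left out. Col18a1 turned negative with library totals (−0.14) and upper quartile factors (−0.027), and ran from −0.062 to 0.074 with 1 library left out. Col27a1 turned positive with the length correction (0.087), and ran from −0.51 to 0.24 with 1 library left out. The difference in the Col4a1 to Col4a2 ratio ran from −0.13 to 0.10, and the correlation of Col5a1 with Col5a2 from 0.381 to 0.809, with 1 library left out. The cause was not tested. Depth limits the chains with few counts. No paired analysis was possible because the columns of the table carry no replicate number of the labels.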
